A study of Mus with 8 samples.

Results

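The 45 genes described here encode proteins that copy DNA and divide the cell. They fall into 14 replication genes, 26 mitotic genes and 5 cycle regulators, and they are 45 of the 22911 genes that the array carries under a RefSeq transcript. A gene was taken as a member when a probe's RefSeq accession named it, which gave 68 probes in all, and all 45 genes passed the filter on dim signal, as did 16068 genes overall. That filter asked for a signal clearly over background on 4 or more of the 8 arrays. The genes were compared between whole subcutaneous tumours of 2 host groups, each tumour grown after injection of Pan02, a cancer line of mouse pancreas. Mutant hosts (B6, Ext1 flox/flox with S100a4-Cre; n = 4) carried a Cre recombinase under S100a4 control, which deletes Ext1, a heparan sulfate polymerase, in fibroblasts and in any other host cell that uses S100a4. Control hosts (B6, wild type; n = 4) carried neither allele, and the cancer cells kept Ext1 in both groups. They were collected at 36 to 40 days, and total RNA of each was read on 1 Cy3 array.

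Dividing cells license their origins by loading the MCM helicase onto DNA and fire them in S phase. DNA is then copied with help from the clamp PCNA and from enzymes that make deoxynucleotides, and the copies are segregated on a spindle. E2F factors drive many of the replication genes, while FOXM1 and MYBL2, working with the MuvB complex, drive many of the mitotic ones. In a tumour such transcripts come from cycling cancer cells and also from cycling immune and stromal cells. In RNA of whole tumours, fewer cycling cells and less of these transcripts per cell cannot be told apart.

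Levels are given as log2 signal minus the array's own 75th percentile, so 1 unit is a 2-fold step. Differences are Mutant minus Control, with standard errors from limma. On each array 61.5% to 67.2% of probes stood well above background, no spot was saturated, and the tumours correlated with each other across genes at 0.926 to 0.991. Ext1 lay between 2.93 and 3.41 in Mutant tumours and between 2.02 and 3.64 in Control tumours, with the lowest value in Control 4. The position of the Ext1 probe relative to the floxed part is not known here, so it does not check the labels. Among the 6 epithelial markers, Krt8, Krt18, Krt19, Krt7 and Cdh1 were above background on every array and Epcam on none.

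In all 45 genes the group means of Mutant and Control tumours differed by less than the SD over Control tumours. The Mutant tumours lay close together and the Control tumours far apart. No member passed the test over all genes (limma, 0 of 45 at an adjusted p under 0.05, smallest adjusted p 0.9996), and 0.0% of the 16068 genes tested did. At an unadjusted p under 0.05 there were 0 of 45 members, against 2.91% of all genes tested. The groups overlapped in all 45 members, and 1.42% of all genes tested had groups that did not overlap. For 44 of 45 members the limma 95% interval of the difference lay within a 2-fold change in either direction. Its bounds were no further out than -0.90 and 0.88. The exception was Ccne2, which was dim. These intervals assume 1 variance for both groups, while the SD over Control tumours was the larger in 44 of 45 members. Intervals with a variance for each group were not computed and could be wider.

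Most differences were small and below 0. Of the 45 members 37 were below 0, or 82.2%, against 47.6% of all genes tested, and the median difference was -0.10 against 0.010 over all genes. The 14 replication genes had a median of -0.025 with 9 below 0, and the 26 mitotic genes had a median of -0.13 with 24 below 0. The 5 regulators had a median of -0.16 with 4 below 0. These members share the same 8 tumours, so their signs are not independent of each other. The sign of the replication and mitotic medians turned without Control 3. Without this tumour the median was 0.20 for replication genes, 0.078 for mitotic genes and -0.027 for regulators, and 11 of 45 members were below 0. Without Control 1, 28 of 45 members were below 0 and the median over members was -0.034. Without Control 4, all 45 were below 0 and the median was -0.21 for replication genes, -0.28 for mitotic genes and -0.27 for regulators.

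**Figure D1:**
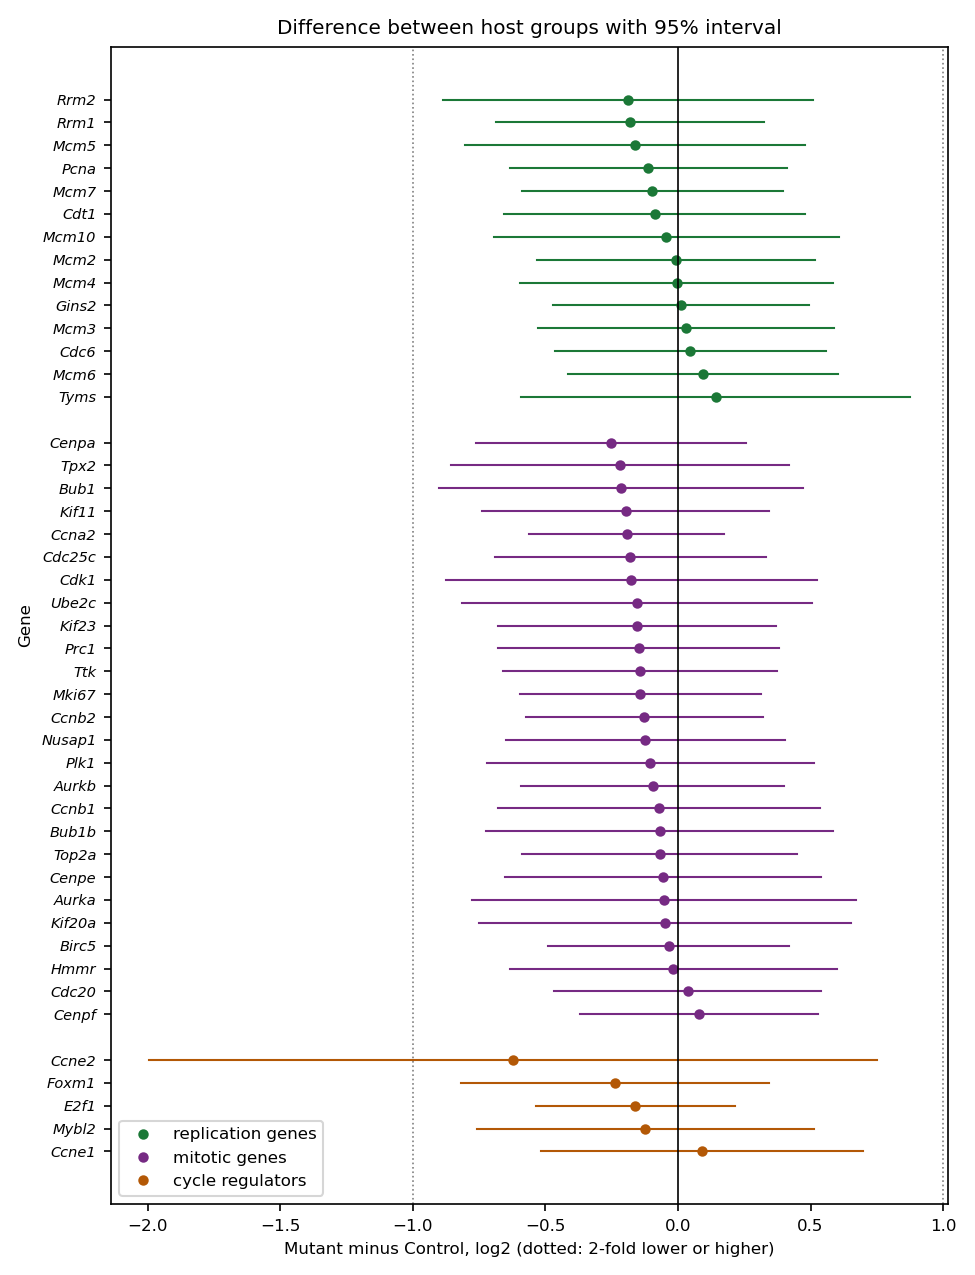
Mutant minus Control difference of each gene (horizontal axis, log2; points) with its 95% interval (lines), for 14 replication genes, 26 mitotic genes and 5 cycle regulators; the dotted lines mark 2-fold lower and 2-fold higher. Every interval crosses 0, and only that of Ccne2 passes a dotted line.

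The replicative helicase was read through its 6 subunits Mcm2 to Mcm7, whose differences ran from -0.16 to 0.094. Mcm5 was at 1.93, 2.14, 1.92 and 1.84 in Mutant tumours 1 to 4, against 2.34, 1.70, 2.85 and 1.59 in Control tumours 1 to 4. All Mutant values lay between Control 2 and Control 1, with Control 3 above and Control 4 below them. The difference was -0.16 (standard error 0.28, two-sided exact permutation p = 0.686). Mcm6 was at 4.78, 4.78, 4.76 and 4.54 in the Mutant tumours, against 4.58, 4.38, 5.27 and 4.26 in the Control tumours, a difference of 0.094. Mcm2 was at 1.20, 1.47, 1.35 and 1.09 in the Mutant tumours, against 1.32, 0.97, 1.91 and 0.94 in the Control tumours. Each of the 6 subunits had its highest value in Control 3, and 5 of 6 had their lowest in Control 4, the exception being Mcm3, at 3.02 in Control 4 and 3.01 in Control 2.

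Genes that load the helicase and start replication followed the same order of tumours. Cdc6 and Cdt1, which load the helicase, and Mcm10 and Gins2, which help to turn it into a moving fork, differed by -0.088 to 0.046. Cdt1 was at 2.59, 2.74, 2.94 and 2.68 in Mutant tumours, against 2.79, 2.58, 3.54 and 2.39 in Control tumours. Mcm10 was at 1.15, 1.36, 1.06 and 1.27 in Mutant tumours, against 1.34, 0.93, 2.05 and 0.69 in Control tumours. All 4 genes were highest in Control 3 and lowest in Control 4 of the 8 tumours.

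Among genes of DNA synthesis, Pcna, the sliding clamp, was the steadiest in Mutant tumours, at 4.34, 4.49, 4.45 and 4.35, against 4.52, 4.24, 5.19 and 4.14 in Control tumours (difference -0.11, standard error 0.22). Rrm1 and Rrm2 encode the subunits of ribonucleotide reductase, which makes deoxynucleotides. Rrm1 was at 1.87, 2.15, 1.99 and 1.74 in Mutant tumours, against 2.14, 1.75, 2.71 and 1.87 in Control tumours (difference -0.18, standard error 0.22, two-sided exact permutation p = 0.571). Rrm2 was at 3.97, 4.28, 4.11 and 3.79 in Mutant tumours, against 4.23, 3.77, 5.11 and 3.79 in Control tumours (difference -0.19, standard error 0.30, two-sided exact permutation p = 0.771). In both genes Control 3 stood above all other tumours, and without it the difference was 0.017 for Rrm1 and 0.11 for Rrm2. Tyms, which makes thymidylate, was at 3.43, 3.21, 3.54 and 3.48 in Mutant tumours, against 3.50, 3.40, 3.89 and 2.30 in Control tumours. Control 4 lay below all other tumours for Tyms, and its difference of 0.14 became -0.18 without that tumour.

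**Figure D2:**
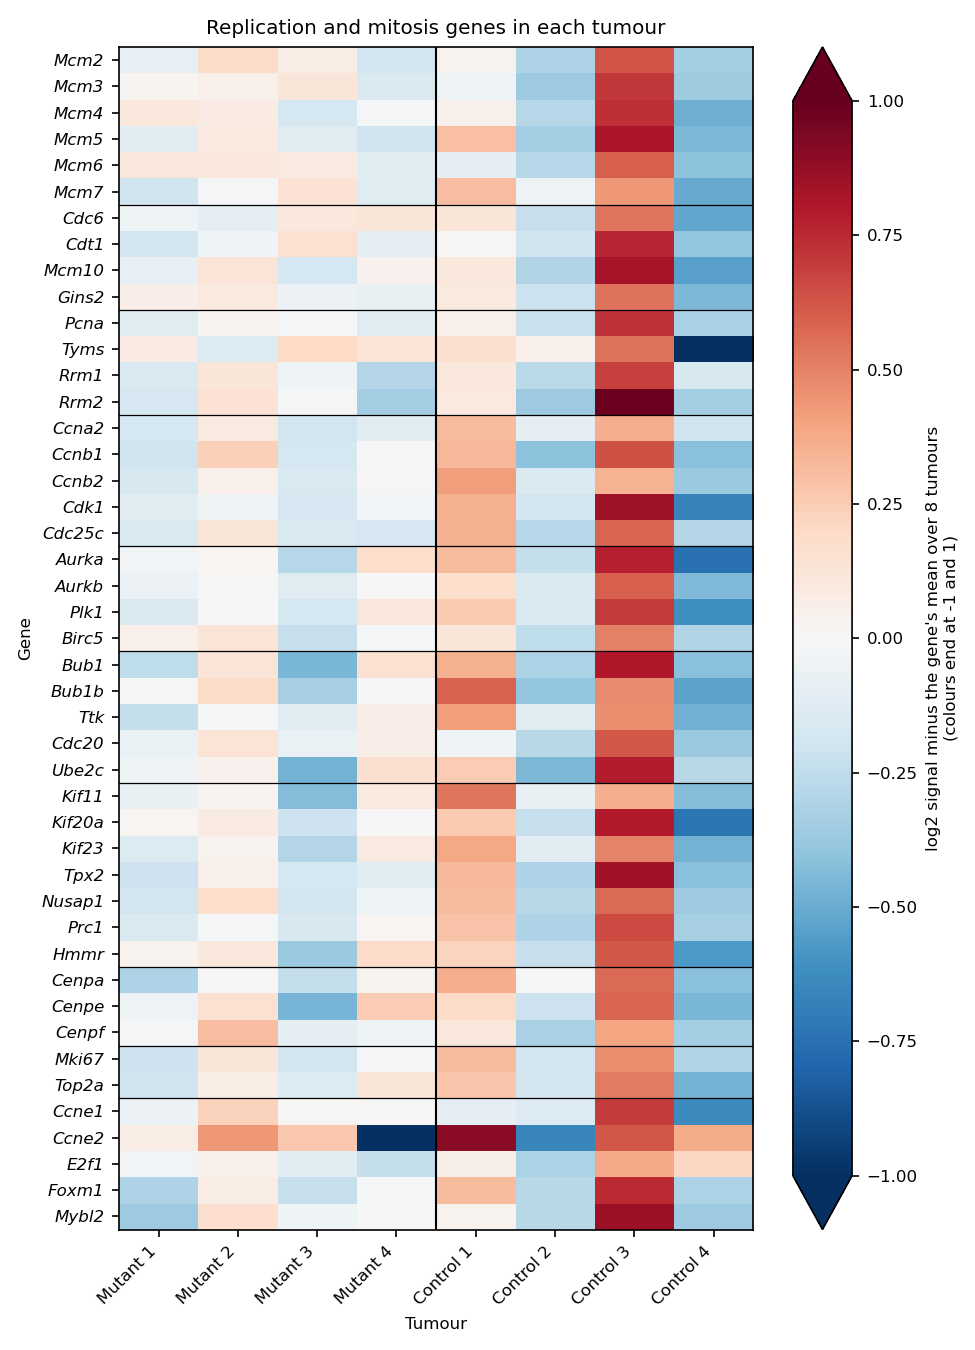
Level of each of the 45 genes (rows) in each tumour (columns, Mutant tumours left), as log2 signal minus the gene's mean over the 8 tumours; colours end at -1 and 1, and horizontal lines separate roles, from helicase subunits at the top to cycle regulators at the bottom. Control 3 is the highest tumour for 41 of 45 genes and Control 4 the lowest for 35. Most values of the Mutant tumours are paler, but Ccne2 in Mutant 4 lies past the low end of the colours.

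The cyclins and their partners of the G2 phase and mitosis were each below 0 in the difference, from -0.19 to -0.072. Ccna2, cyclin A, had the smallest p of the 45 members (limma unadjusted p = 0.257). It was at 2.64, 2.90, 2.63 and 2.70 in Mutant tumours, against 3.13, 2.72, 3.17 and 2.62 in Control tumours (difference -0.19, 95% interval -0.56 to 0.17, two-sided exact permutation p = 0.257). Control 1 and Control 3 lay above every Mutant tumour, and Control 2 and Control 4 lay among or below them. Cdk1, the kinase that drives entry into mitosis, spread over 0.14 among Mutant tumours and over 1.52 among Control tumours. Cdk1 was at 1.01, 1.08, 0.95 and 1.09 in Mutant tumours, against 1.48, 0.93, 1.97 and 0.45 in Control tumours (difference -0.18, standard error 0.30). Ccnb1, cyclin B1, was at 2.38, 2.81, 2.40 and 2.57 in Mutant tumours, against 2.91, 2.16, 3.21 and 2.16 in Control tumours. Cdc25c, the phosphatase that activates Cdk1, was at 0.25, 0.52, 0.25 and 0.23 in Mutant tumours, against 0.76, 0.12, 0.98 and 0.11 in Control tumours, with Mutant 2 apart from the other Mutant tumours (difference -0.18).

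Kinases that build and time the spindle differed by at most 0.10 in size. Plk1, polo-like kinase, was at 3.28, 3.43, 3.25 and 3.54 in Mutant tumours, against 3.69, 3.29, 4.13 and 2.81 in Control tumours (difference -0.10, standard error 0.27). Aurka, the centrosomal aurora kinase, was at 3.22, 3.27, 2.97 and 3.42 in Mutant tumours, against 3.57, 3.01, 4.03 and 2.50 in Control tumours (difference -0.053, standard error 0.31). Aurkb and Birc5 encode the kinase and the survivin subunit of the chromosomal passenger complex. Aurkb was at 0.56, 0.61, 0.50 and 0.61 in Mutant tumours, against 0.80, 0.47, 1.22 and 0.17 in Control tumours. All 4 genes were highest in Control 3 and lowest in Control 4.

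The spindle checkpoint genes Bub1, Bub1b and Ttk and the anaphase promoting complex partners Cdc20 and Ube2c differed by -0.21 to 0.037. Bub1, a checkpoint kinase, was at 0.021, 0.41, -0.18 and 0.43 in Mutant tumours, against 0.63, -0.038, 1.08 and -0.14 in Control tumours (difference -0.21, standard error 0.30). Mutant 3 had the lowest Bub1 value of the 8 tumours. It was also the lowest of the 8 for Ube2c, at 2.15, which encodes the ubiquitin-conjugating enzyme of the complex, and, by a narrow margin below Control 4, for Kif11 and Cenpe. Cdc20, the activator of the complex, was at 3.46, 3.66, 3.45 and 3.59 in Mutant tumours, against 3.48, 3.24, 4.15 and 3.15 in Control tumours.

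All 7 genes of spindle motors and microtubule binders were below 0, with differences of -0.22 to -0.017. Kif11, the motor that pushes spindle poles apart, was at -0.67, -0.57, -1.03 and -0.50 in Mutant tumours, against -0.060, -0.67, -0.23 and -1.03 in Control tumours (difference -0.20, standard error 0.23, two-sided exact permutation p = 0.486). Tpx2, which activates aurora A on the spindle, was at 0.72, 0.98, 0.75 and 0.82 in Mutant tumours, against 1.25, 0.61, 1.77 and 0.51 in Control tumours. Kif20a was at 1.88, 1.94, 1.64 and 1.86 in Mutant tumours, against 2.11, 1.63, 2.65 and 1.12 in Control tumours. In all 3 genes the Control values reached further up than any Mutant value. Prc1, which bundles the microtubules of the central spindle, was at 3.64, 3.77, 3.62 and 3.80 in Mutant tumours, against 4.07, 3.47, 4.43 and 3.45 in Control tumours.

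At the kinetochore, Cenpa, the histone variant that marks centromeres, had the largest negative difference of the mitotic genes. It was at 1.51, 1.82, 1.58 and 1.86 in Mutant tumours, against 2.19, 1.81, 2.38 and 1.41 in Control tumours, or 0.839-fold (difference -0.25, 95% interval -0.76 to 0.25, two-sided exact permutation p = 0.371). Without Control 4 the Cenpa difference was -0.43, and Cenpa was then the only member at an unadjusted p under 0.05. Cenpe, a kinetochore motor, was at 2.83, 3.03, 2.42 and 3.14 in Mutant tumours, against 3.07, 2.68, 3.47 and 2.43 in Control tumours. Mki67, the common marker of cycling cells, was at 3.87, 4.20, 3.90 and 4.07 in Mutant tumours, against 4.40, 3.89, 4.54 and 3.78 in Control tumours (difference -0.14, standard error 0.20). Top2a, the topoisomerase that untangles chromosomes, was at 3.34, 3.62, 3.41 and 3.66 in Mutant tumours, against 3.82, 3.36, 4.06 and 3.07 in Control tumours (difference -0.069, standard error 0.22). For Mki67 and Top2a alike every Mutant value lay inside the Control range.

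Of the regulators, Foxm1, the transcription factor of the G2 and mitosis program, was at 1.54, 1.93, 1.62 and 1.84 in Mutant tumours, against 2.17, 1.58, 2.60 and 1.54 in Control tumours (difference -0.24, standard error 0.25, two-sided exact permutation p = 0.514). E2f1, which drives S-phase genes, was at 0.68, 0.76, 0.60 and 0.47 in Mutant tumours, against 0.77, 0.39, 1.09 and 0.91 in Control tumours (difference -0.16, standard error 0.16, two-sided exact permutation p = 0.314). E2f1 departed from the other members in Control 4, which was the second highest of the 8 tumours here. Mybl2, the B-Myb factor, was at 1.25, 1.78, 1.57 and 1.61 in Mutant tumours, against 1.65, 1.34, 2.47 and 1.25 in Control tumours. Ccne1, cyclin E1, was at 1.41, 1.70, 1.48 and 1.47 in Mutant tumours, against 1.37, 1.33, 2.17 and 0.83 in Control tumours. Ccne2, cyclin E2, was well above background on 2 Mutant and 3 Control arrays. It was at -5.81, -5.45, -5.62 and -7.91 in Mutant tumours, against -4.98, -6.54, -5.27 and -5.52 in Control tumours, and its difference was -0.62 (standard error 0.59, 95% interval -1.99 to 0.75, two-sided exact permutation p = 0.457). That value rests in part on signals near background, and without Mutant 4 it was -0.050.

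The spread inside the host groups was then compared. The SD over Control tumours exceeded the SD over Mutant tumours in 44 of 45 members, the exception being Ccne2, and in 79.7% of the 16050 genes with a value on every array. The median ratio of the Control SD to the Mutant SD was 3.03 over the members and 1.69 over those genes, 4.18 over replication genes and 2.69 over mitotic genes. The range over replication genes had a median of 0.30 in Mutant tumours and 1.07 in Control tumours, and over mitotic genes 0.34 in Mutant tumours and 1.00 in Control tumours. This comparison was made after the values were seen and is given without a test, and an SD of 4 tumours is itself imprecise.

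**Figure D3:**
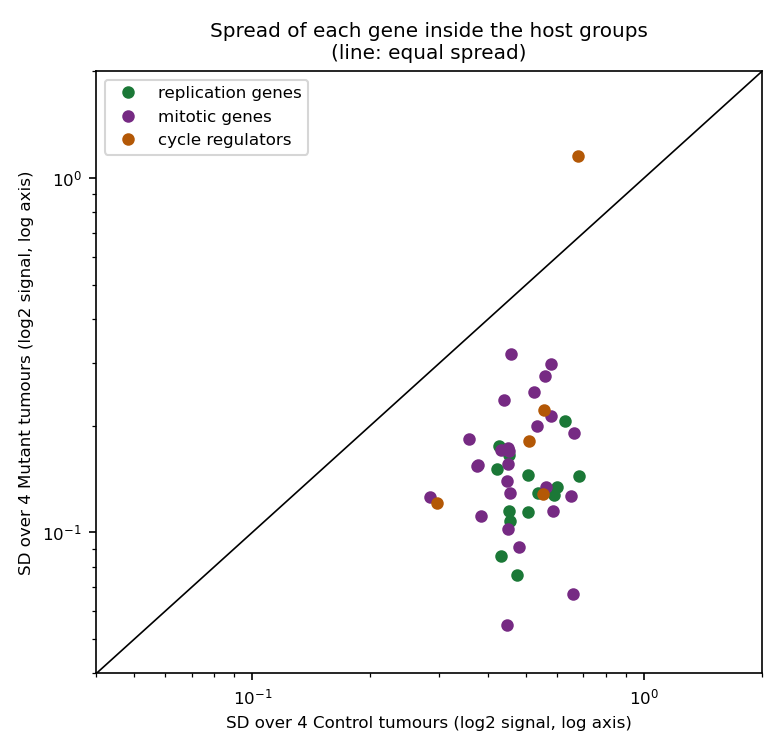
SD of each of the 45 genes over 4 Mutant tumours (vertical, log axis) against its SD over 4 Control tumours (horizontal, log axis), on log2 signals; the line marks equal spread. All points but Ccne2 lie below the line.

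Most of the Control spread lay between Control 3 and Control 4. Control 3 was the highest of the 8 tumours in 14 of 14 replication genes, 23 of 26 mitotic genes and 4 of 5 regulators, and in 25.3% of all genes. The mitotic exceptions were Ccnb2, Bub1b and Kif11, all highest in Control 1. Control 4 was the lowest in 11 of 14 replication genes, 22 of 26 mitotic genes and 2 of 5 regulators, and in 35.2% of all genes. The gap between Control 3 and Control 4 ranged from 0.84 to 1.59 over replication genes, which is 1.79-fold for Rrm1 and 3.01-fold for Tyms. Over mitotic genes it ranged from 0.56 to 1.52, or 1.47-fold for Ccna2 and 2.88-fold for Aurka. Control 4 had the lowest 75th percentile before scaling, a signal of 575.9, against 665.4 to 740.7 in the other tumours. With quantile normalization Control 4 was lowest in 28 of 45 members and in 33.1% of all genes, and Control 3 highest in 37 members and in 19.6% of all genes. With centring on the array median Control 4 was lowest in 43 members and in 50.5% of all genes, and Control 3 highest in 42 members and in 34.9% of all genes.

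Control 1 and Control 2 differed from each other as well. Leaving out Control 3 and Control 4, the SD over the remaining Control tumours exceeded the Mutant SD in 40 of 45 members and in 42.0% of all genes. Control 1 lay above every Mutant tumour in 22 of 26 mitotic genes and in 4 of 14 replication genes, or 84.6% and 28.6%, against 26.5% of all genes. Control 2 lay below every Mutant tumour in 11 of 14 replication genes and 12 of 26 mitotic genes, against 22.1% of all genes. All 4 Mutant tumours fell inside the Control range in 38 of 45 members, or 84.4%, against 47.2% of all genes. Without Control 3 the count was 25 of 45, against 29.6% of all genes, and without Control 4 it was also 25, against 22.8%.

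Replication and mitotic genes were then set against each other. The level of a list is the mean of its genes after each was centred on its own mean over the 8 tumours. Replication genes were at -0.054, 0.056, 0.020 and -0.10 in Mutant tumours 1 to 4, against 0.095, -0.24, 0.68 and -0.45 in Control tumours 1 to 4. Mitotic genes were at -0.12, 0.085, -0.23 and 0.039 in Mutant tumours, against 0.30, -0.23, 0.59 and -0.44 in Control tumours. In both lists Control 3 was highest and Control 4 lowest, and the Mutant tumours lay between them.

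The lists parted in a few tumours. Replication level minus mitotic level was 0.063, -0.029, 0.25 and -0.14 in Mutant tumours 1 to 4, against -0.21, -0.015, 0.088 and -0.011 in Control tumours 1 to 4. Mutant 3 had the largest excess of replication over mitotic transcripts, and Control 1 the largest in the other direction. Mutant 3 was the lowest Mutant tumour in 17 of 26 mitotic genes and in 2 of 14 replication genes, against 27.2% of all genes. Mutant 4 was the highest Mutant tumour in 14 of 26 mitotic genes and in 1 of 14 replication genes, against 18.6% of all genes. It was the lowest in 7 of 14 replication genes and in 1 of 26 mitotic genes, against 23.3% of all genes. Between host groups, the excess averaged 0.036 ± 0.17 in Mutant tumours and -0.036 ± 0.12 in Control tumours (SD, n = 4 each), which differ by less than either SD.

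**Figure D4:**
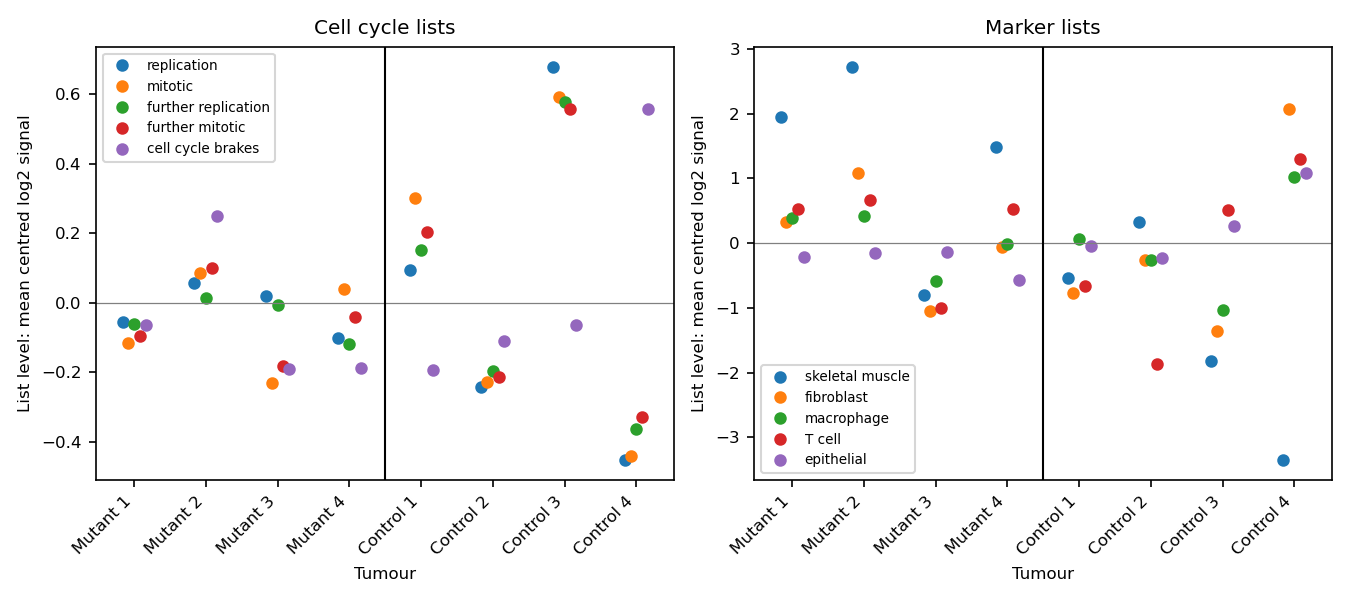
List level (vertical, mean centred log2 signal) in each of the 8 tumours (horizontal, Mutant tumours left) for cell cycle lists (left panel) and marker lists of cell types (right panel). Replication and mitotic lists peak in Control 3 and are lowest in Control 4. The fibroblast, macrophage, T cell and epithelial lists are highest in Control 4, and the skeletal muscle list is lowest there. The brakes list also peaks in Control 4, at 0.56, which falls to 0.018 without Cdkn1c, Cdkn2a and Cdkn2b.

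Further genes of the same processes, outside the 45, showed the same order of tumours. Of 30 further replication genes 27 were below 0 (90%), with a median difference of -0.10. Of 40 further mitotic genes 33 were below 0 (82.5%), with a median of -0.11 (0 called in either list, limma). The gap between replication and mitotic medians among the 45 members, -0.025 against -0.13, was thus not seen between the further lists. Control 3 was highest in 27 of the 30 and in 37 of the 40, and Control 4 lowest in 21 of the 30 and in 29 of the 40. Those with the smallest p among the replication genes were Dbf4 at -0.30, Lig1, the replicative ligase, at -0.23 and Gins4 at -0.15. Among the mitotic genes they were Cep55 at -0.43, which acts in the final cut between daughter cells, Anln at -0.39, which acts at the cleavage furrow, and the kinetochore gene Ndc80 at -0.21. The two-sided exact permutation p of these 6 genes lay between 0.143 and 0.429. Mutant 3 was the lowest Mutant tumour in 26 of 40 further mitotic genes and in 7 of 30 further replication genes. Mutant 4 was the lowest Mutant tumour in 13 of 30 further replication genes and in 4 of 40 further mitotic genes. It was the highest in 4 of 40 further mitotic genes and in 3 of 30 further replication genes. The many first places of Mutant 4 in mitotic genes among the 45 members were thus not seen among the further genes. There Mutant 2 was the highest Mutant tumour in 33 of 40 mitotic genes. By list level, Mutant 4 lay below only Mutant 2 among Mutant tumours in both mitotic lists. The levels were 0.039 against 0.085 in members and -0.041 against 0.099 in further genes. In both replication lists Mutant 4 was the lowest Mutant tumour, at -0.10 in members and -0.12 in further genes. Control 1 lay above every Mutant tumour in 26 of 40 further mitotic genes (65%) and in 21 of 30 further replication genes (70%), so the split between the lists seen in Control 1 among the 45 members was not seen among the further genes.

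Cell cycle brakes, among them Cdk inhibitors and Rb family members, were below 0 in 15 of 16 genes, with a median difference of -0.081 and 0 called. Btg1, an antiproliferative factor, was at 4.57, 4.53, 4.65 and 4.49 in Mutant tumours, against 4.84, 4.73, 4.62 and 4.76 in Control tumours (difference -0.18, two-sided exact permutation p = 0.0571). Rb1, the retinoblastoma protein, was at 1.02, 1.09, 1.13 and 1.01 in Mutant tumours, against 1.28, 1.29, 1.22 and 1.09 in Control tumours (difference -0.16, two-sided exact permutation p = 0.0571). Cdkn2d differed by -0.25. The smallest p that 4 against 4 tumours allow is 0.0286. Of 13 genes of cycle entry, 7 were below 0 (median -0.065, 0 called), with Ccnd3 at 0.20, Cdk6 at 0.33 and Ccnd1 at -0.21. In Control 4, where the mean level of the 45 members was lowest, 5 of the 16 brakes were at their highest of the 8 tumours and 3 at their lowest. The list level of the brakes there was 0.56, and 0.018 over the other 13 genes without the Cdk inhibitors Cdkn1c, Cdkn2a and Cdkn2b, which were left out after their values were seen. In Control 4 these genes were at 1.39 (Cdkn1c), 1.28 (Cdkn2a) and 1.63 (Cdkn2b), above all other tumours.

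Marker lists of cell types moved between the same tumours, in differing directions. In Control 4 the level was 2.06 for fibroblast markers (7 of 10 genes highest there of all tumours), 1.03 for macrophage markers (3 of 8), 1.29 for T cell markers (6 of 7) and 1.08 for epithelial markers (5 of 5). Over all genes, 3588 of 16050 were highest in Control 4. Skeletal muscle markers were at -3.35 in Control 4, with 12 of 15 lowest there of all tumours, against 35.2% of all genes. Endothelial markers were at -0.020 there, and B and plasma cell markers (4 of 6 measured) at 0.84. In Control 3 the level was -1.35 for fibroblast, -1.04 for macrophage, 0.51 for T cell and 0.26 for epithelial markers. Control 3 stood at -1.82 for skeletal muscle, -0.35 for endothelial and 1.01 for B and plasma cell markers. The macrophage level there was -0.40 without Cd163, which was at -6.29 in Control 3. Between the groups, all 15 skeletal muscle markers were above 0, with list levels of -0.80 to 2.72 in Mutant tumours and -3.35 to 0.33 in Control tumours. All 5 measured epithelial markers were below 0, with list levels of -0.57 to -0.13 in Mutant tumours and -0.23 to 1.08 in Control tumours. Fibroblast levels were -1.04 to 1.09 in Mutant tumours and -1.35 to 2.06 in Control tumours. Macrophage levels were -0.58 to 0.42 in Mutant tumours and -1.04 to 1.03 in Control tumours. T cell levels were -1.0 to 0.67 in Mutant tumours and -1.86 to 1.29 in Control tumours. Trac has no probe under the rule used here. The part of these cell types in the levels of the replication and mitosis genes was not tested.

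The arrays lay on 1 slide in 2 rows, each with 2 Mutant and 2 Control tumours. The direction differed between rows for replication genes and regulators, while the mitotic median was below 0 in both. In row 1 (tumours 1 and 2 of each group) the median difference was 0.093 for replication genes, -0.059 for mitotic genes and 0.13 for regulators. In row 2 (tumours 3 and 4) it was -0.19 for replication genes, -0.16 for mitotic genes and -0.34 for regulators. Row 2 holds both Control 3 and Control 4, so the row and these tumours cannot be told apart.

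**Figure D5:**
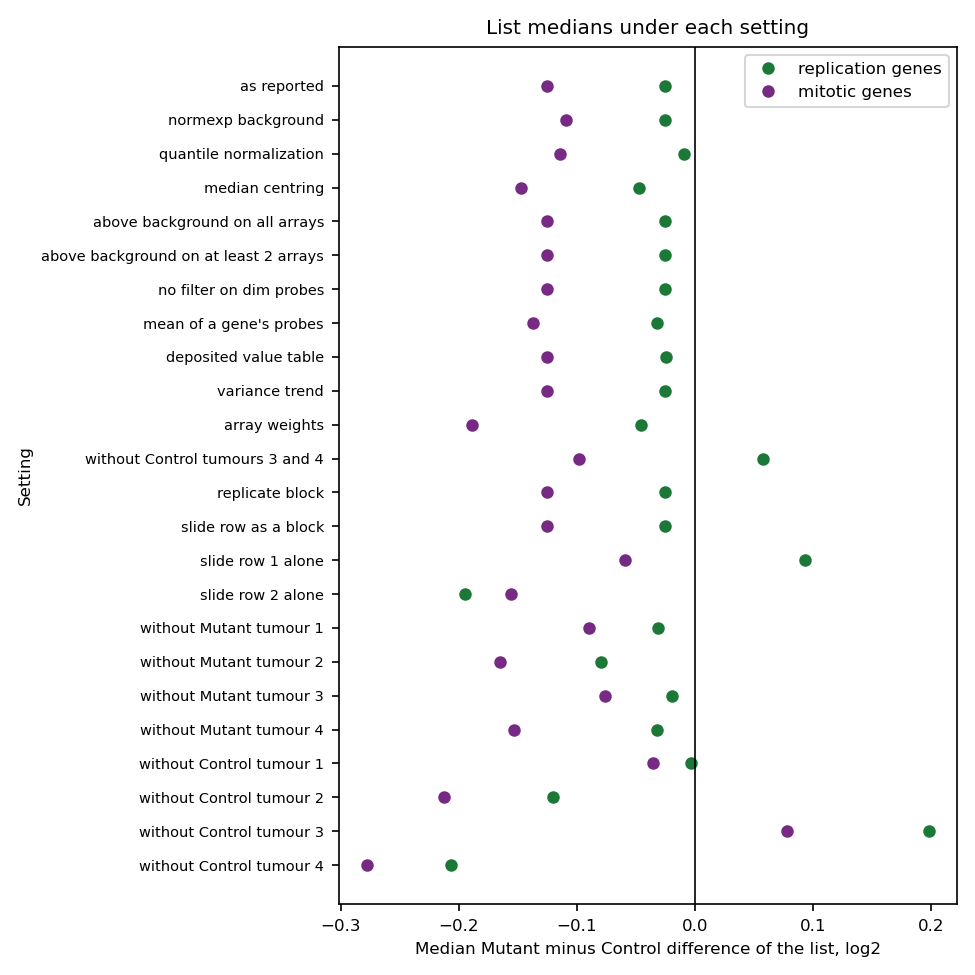
Median Mutant minus Control difference (horizontal, log2) of the 14 replication genes and of the 26 mitotic genes under each setting (rows). The mitotic median is the lower of the pair in every row but slide row 2 alone, and both medians are above 0 only without Control tumour 3. Every row uses the same 2 lists of genes.

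Each member probe was also read by itself. Of 67 member probes that passed the filter, 57 were below 0 in the difference, and 0 were called when each of 36824 probes was tested by itself (limma, 0 member probes at an unadjusted p under 0.05). For 18 members with several such probes the probes differed in sign in 6 (Cdc20, Cdc6, Cenpf, Gins2, Mcm3 and Mcm6), all with differences between -0.18 and 0.094. Among the 12 without a change of sign, the lowest and highest probe were at -0.43 and -0.017 for Hmmr, at -0.36 and -0.097 for Mcm7 and at -0.30 and -0.072 for Ccnb1. These gaps are wider than the size of the median difference over members, which was -0.10.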

How the data were processed

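Per the labels' protocols, total RNA of whole tumours was amplified and labelled with Cy3. Per the file headers, intensity came from Agilent Feature Extraction 10.7.3.1 (the submitters' processing notes name 9.1) as a background-subtracted, detrended signal, unscaled between arrays. The deposited value table holds intensity too, equal to that signal averaged over a probe's spots, within 0.01% for 99.49% to 99.51% of probes. The deposited flag columns have no unit (other).

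Outlier spots were left out (66 to 117 per array), spots of a probe averaged, log2 taken and the array's 75th percentile subtracted. Probes well above background on at least 4 arrays were kept, and the probe with the highest mean stood for its gene (RefSeq accession matched to GRCm38.p6; 32994 of 56605 probes named). The array design names another build, so no coordinates are given. Groups were compared by limma 3.58.1 (R 4.3.3), Benjamini-Hochberg over 16068 genes, and by two-sided exact permutation over 70 arrangements. On simulated data for this comparison (16068 genes), 48.5% of 2-fold and 80.6% of 4-fold changes were recovered. The simulation drew genes independently of each other, from a normal distribution with the same SD in both groups. In the real tumours the Control SD was the larger in 79.7% of genes, so recovery in these data can differ. Arrays give no count depth; 4 tumours per group limit precision. Summaries used pandas 2.3.3 under Python 3.11.15.

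Members and lists were chosen with earlier results of these data known. Members described with a difference are the 3 of smallest p in each list, with 10 others chosen after their values were seen; of other lists, the 3 of smallest p. Shared replicate numbers are not stated to pair the tumours, which were compared unpaired. Correlations of same-numbered tumours' deviations ran from -0.31 to 0.078, which cannot decide whether the tumours were paired. Alternatives covered background correction, scaling, filters, probe choice, the value table, variance trend, array weights, replicate and row blocks, and left-out tumours; normexp ran on median spot signals.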

Additional observations from a re-analysis of the deposited data

Results flagged for a closer look

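In groups of 4 tumours, a tumour was singled out where its gap to the nearest other made up a larger share of the group's range than Dixon's 95% critical value allows. Of 100 groups examined 3 met this, where chance gives about 1 in 20. Mcm6 was low in Mutant 4, at 4.54, against 4.76 to 4.78 in the other Mutant tumours. Cdc25c was high in Mutant 2, at 0.52. Ccne2 was low in Mutant 4, at -7.91, on an array where it was not well above background.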

How the results depend on the processing

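No gene was called over the whole table under any of the 23 alternatives (0 each, limma), while 195 (without Mutant 1) to 1912 genes (slide row 1 alone) had an unadjusted p under 0.05, against 467 as reported, 1280 with array weights and 371 with the replicate block. The count of members at an unadjusted p under 0.05 was 0 except without Control 3 (1, Mcm6) and without Control 4 (1, Cenpa). List medians moved by less than the pooled SD of the list level over tumours, which the Control tumours dominate, but changed sign in some alternatives. Without Control 3 the replication and mitotic medians moved by more than the Mutant SDs of 0.071 and 0.15. With a tumour left out they ranged from -0.21 to 0.20 for replication genes, -0.28 to 0.078 for mitotic genes and -0.29 to -0.027 for regulators, and the replication minus mitotic value from 0.032 to 0.12 around 0.10. It was -0.039 in slide row 2 alone. With the replicate block, as with the slide row as a block, these medians stayed at -0.025, -0.13 and -0.16. Tumours of the same number lay side by side in the same slide row. The count of members with the larger SD in Control tumours ranged from 43 to 45 with a tumour left out. Signs of single genes turned as follows. In slide row 1 alone Rrm1 was 0.067, Rrm2 0.12, Mcm5 0.017, Ccne2 0.13, E2f1 0.14, Pcna 0.042 and Tyms -0.13, and in row 2 alone Mcm6 was -0.11. Without both Control 3 and Control 4, chosen after seeing the data, Rrm2 was 0.038, E2f1 0.050, Pcna 0.032, Tyms -0.035 and Ccnd1 0.0068. Tyms was -0.026 with array weights, and a second Mcm6 probe gave -0.038. With a tumour left out the difference ranged from -0.30 to 0.017 for Rrm1, -0.34 to 0.11 for Rrm2, -0.34 to 0.083 for Mcm5, -0.029 to 0.31 for Mcm6, -0.24 to 0.094 for Top2a, -0.24 to 0.11 for Pcna, -0.43 to 0.079 for Cdk1, -0.33 to 0.11 for Plk1, -0.39 to 0.018 for Bub1, -0.31 to 0.20 for Aurka and -0.18 to 0.35 for Tyms. The cause of these turns was not tested. Signal near background limits Ccne2 alone among the members.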
